A study of Mus musculus with 9 samples.

Results

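Cd68, Itgb2 and Naip2 are 3 of the 5301 genes measured by RNA-seq in 6DT1 cells, and they are described here across all 9 libraries. They were chosen by their values, as genes best known from myeloid cells that were lower in both Resf1 knockdown (KD) groups than in the control, and each was found by its Ensembl identifier through GENCODE M21. The comparison with the control is therefore given as a description, without a test. The direct comparison of the 2 hairpins was not used by that rule and was tested, although the difference of Naip2 between the hairpins was already known when the genes were chosen. 6DT1 is a mouse mammary tumor line that came from an MMTV-Myc tumor and is syngeneic to FVB/NJ mice. All 9 libraries came from 6DT1 cells that had been transduced with lentiviral shRNA and were grown in medium with 10 µg/ml puromycin. The libraries formed 3 groups of 3: shControl, with a scramble hairpin and the genotype label wildtype, and shH4 and shH6, with the hairpins H4 and H6 against Resf1 and the genotype label of a knockdown. The cells of every group were seeded in separate dishes at the same density and lysed after 24 h. Nothing in the labels gave more than 1 transduced line per hairpin, so the hairpin and the line cannot be told apart, and the p-values measured the spread between dishes only.

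Cd68 encodes a heavily glycosylated membrane protein of late endosomes and lysosomes, a relative of the LAMP proteins, and is the most used marker of macrophages. Itgb2 encodes CD18, the beta chain that all leukocyte beta2 integrins share, which pairs with the alpha chains Itgal, Itgam, Itgax or Itgad to bind ICAM proteins and complement. Naip2 encodes a cytosolic receptor for the rod protein of bacterial type III secretion systems, and it acts with Nlrc4 to form an inflammasome that activates caspase-1.

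The values were normalized counts, that is, estimated reads divided by a size factor for each library. The listed genes held between 10.5 and 19.9 M estimated reads per library, with the fewest in shH6 replicate 3 and the most in shControl replicate 1. Each gene of the table was higher in both KD groups or lower in both. In it, 95.7% of the genes differed from shControl in shH4 and 96.1% in shH6 (limma, adjusted p under 0.05), with 49.2% and 49.1% higher and 46.5% and 46.9% lower, so a gene's presence among the lower genes was common. Why only these genes were listed was not stated. The p-values against shControl come from this selected set and were adjusted over it alone, so a pass says little about a single gene. All 6 KD libraries lay below all 3 shControl libraries in 42.8% of the genes. Between shH6 and shH4, 8.26% of the genes differed, 3.89% higher and 4.38% lower in shH6. These were 438 genes, against 684 with library weights and 287 without shH6 replicate 1 or 290 without shH4 replicate 1. Genes that moved in opposite directions from shControl in shH4 and shH6 are absent from this table. The shares of all genes between the hairpins, here and below, therefore describe the selected genes only. They do not measure how far the hairpins agree over all genes of these cells.

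The hairpin sequences are shown because the direct comparison sets one against the other. Each is written 5′ to 3′ with its seed, bases 2 to 8, in capitals.
H4: tTTCGATTtgtaacataggtc
H6: aAACAACCaagttacctcagg
The reverse complement of H4 was found in 5 of the 11 annotated Resf1 transcripts and that of H6 in 2. The reverse complement of either seed was found in none of the annotated transcripts of Cd68 (3 transcripts), Itgb2 (5) and Naip2 (3). Among the listed genes with a transcript, 7.21% held the H4 seed match and 23.1% the H6 seed match. This says only that these letters are not in those transcripts.

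Resf1 (ENSMUSG00000032712), the target of both hairpins, was measured first. It was at 1591, 1553 and 1610 normalized counts in shControl, 976, 953 and 1016 in shH4, and 1120, 1113 and 1130 in shH6. No KD library reached the shControl range, and the shH6 libraries were above the shH4 libraries. The log2 difference of shH6 from shH4 was 0.19 (SE 0.043, limma adjusted p = 0.00984), so less Resf1 RNA remained in shH4.

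Cd68 (ENSMUSG00000018774) lies on the minus strand of chromosome 11. It was at 668, 608 and 638 normalized counts in shControl, 197, 245 and 237 in shH4, and 220, 234 and 191 in shH6. The KD libraries did not overlap with the shControl libraries, and those of the hairpins overlapped each other. The means were 638 ± 30.1 (shControl), 226 ± 25.6 (shH4) and 215 ± 22.1 (shH6), with the SD over 3 libraries. Relative to shControl, Cd68 was 64.5% lower with H4 and 66.3% lower with H6, or −1.50 and −1.57 on the log2 scale. In the table, ordered from the lowest log2 difference, Cd68 held place 34 in shH4 and place 23 in shH6.

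Cd68 did not pass the test between the hairpins. The log2 difference of shH6 from shH4 was −0.07 (95% interval −0.27 to 0.13, limma adjusted p = 0.72), an interval that includes 0. Without shH6 replicate 3, the shH6 library with the lowest Cd68 value, the difference was 0.01. The adjusted p ran from 0.358 to 0.966 over the alternatives.

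Itgb2 (ENSMUSG00000000290) lies on the plus strand of chromosome 10 and had the highest values of the 3 genes. It was at 2998, 2874 and 2954 normalized counts in shControl, 2165, 2234 and 2276 in shH4, and 2833, 2744 and 2665 in shH6. The shH4 libraries were the lowest, and the shH6 libraries lay between them and the shControl libraries, with a narrow gap to the latter. The means were 2942 ± 62.9 (shControl), 2225 ± 55.8 (shH4) and 2747 ± 83.9 (shH6), with the SD over 3 libraries. This put Itgb2 24.4% lower with H4 but only 6.62% lower with H6. On the log2 scale the differences were −0.40 and −0.10, with places 838 and 2537 in the table.

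The gap between shH6 and shControl in Itgb2 depended on the scaling. When the libraries were scaled by their column total, the log2 difference from shControl was −0.06, and the shH6 libraries (2733 to 2865) overlapped with the shControl libraries (2834 to 2954). With the upper quartile it was −0.15, without overlap.

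In the direct comparison, Itgb2 was higher in shH6 than in shH4. The log2 difference was 0.30 (SE 0.038, 95% interval 0.22 to 0.38, limma adjusted p = 9.67e-05), and all shH6 libraries were above all shH4 libraries. The adjusted p ran from 2.85e-06 to 0.00451 over the alternatives. Itgb2 thus had the smaller difference from shControl in shH6.

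Naip2 (ENSMUSG00000078945) lies on the minus strand of chromosome 13 and had the largest differences of the 3 genes. It was at 304, 316 and 284 normalized counts in shControl, 83.7, 83.5 and 83.1 in shH4, and 46.7, 38.8 and 31.2 in shH6. The 3 groups did not overlap. The means were 301 ± 16.6 (shControl), 83.5 ± 0.305 (shH4) and 38.9 ± 7.74 (shH6), with the SD over 3 libraries. This put Naip2 72.3% lower with H4 and 87.1% lower with H6. The log2 differences were −1.84 and −2.94. In shH6 this was the lowest log2 difference of all 5301 genes, and in shH4 it held place 12.

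Naip2 was also lower in shH6 than in shH4. The log2 difference was −1.10 (SE 0.14, 95% interval −1.39 to −0.82, limma adjusted p = 8e-05), which was place 9 from the lowest of the table. The adjusted p ran from 4.7e-05 to 0.00229 over the alternatives. Since this difference was known beforehand, its p is not independent of the choice of the gene. Naip2 thus had its larger difference from shControl in shH6, whereas Itgb2 had its larger difference in shH4, and both hairpins were set against the same shControl libraries.

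**Figure D1:**
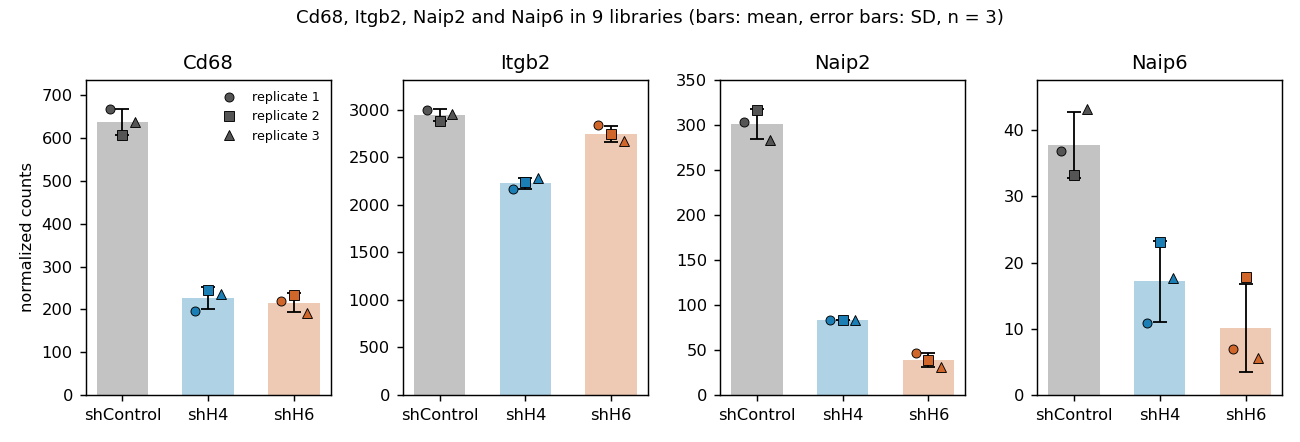
Normalized counts (y axis, from 0, one scale per panel) of Cd68, Itgb2, Naip2 and the Naip2 relative Naip6 in the shControl, shH4 and shH6 libraries. Points are libraries, bars are means and error bars are SD (n = 3). Cd68 was at 226 in shH4 and 215 in shH6, Itgb2 was lower in shH4 (2225) than in shH6 (2747), and Naip2 was lower in shH6 (38.9) than in shH4 (83.5).

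The reads behind these values set their precision. Cd68 rested on 978, 513 and 576 estimated reads in shControl, 200, 223 and 242 in shH4, and 288, 223 and 153 in shH6. Itgb2 rested on 2033 to 4387 reads in every library. Naip2 rested on 445, 267 and 256 reads in shControl, 85, 76 and 85 in shH4, and 61, 37 and 25 in shH6, so its shH6 values were the least precise. Counting error alone would give an SD of about 9.23 normalized counts for Naip2 in shH4 and 6.2 in shH6. The SD of 0.305 between the shH4 libraries was below this, so it understates the error of that mean. For Cd68, the SD in the KD groups (25.6 and 22.1) was above the counting SD (15.2 and 14.7). The shallowest library, shH6 replicate 3, was the lowest shH6 library for all 3 genes. All 27 values of the 3 genes were within 0.1 of a whole number of reads, against 73.9% of all table values in the same range.

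Levels were compared between the genes per kilobase of exon. In shControl, Itgb2 was at 964 normalized counts per kb, above Cd68 at 508 and Naip2 at 62.2. These were at the percentiles 85.4, 74.7 and 18.5 of the listed genes, which are a selected part of the genes of this line. In shH4 the levels were 729, 180 and 17.2 per kb, and in shH6 they were 900, 171 and 8.03 per kb. Itgb2 remained above percentile 81 in every group, whereas Cd68 was at percentile 44.7 in shH4 and 43.2 in shH6, and Naip2 at 6.47 and 3.21. The order of the 3 genes was the same in each group.

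Naip2 belongs to a cluster of related genes that share stretches of identical sequence, and the handling of reads that fit several of them is not given in the sources used here. Of the 50-base windows of its longest transcript (4823 bases), 19.3% were also found in Naip1, Naip3, Naip5 or Naip6. For 100-base windows this share was 4.45%. The longest runs shared with Naip1 and with Naip6, both in the coding sequence of exon 11 of 16, are shown because reads from them cannot be assigned to 1 gene by their letters. They are written on the minus strand, with the build GRCm38. The first is 175 bases long, at chr13:100160193-100160367, and is found in Naip1 and Naip3. The second is 115 bases long, at chr13:100161861-100161975, and is found in Naip6.
Naip2 and Naip1: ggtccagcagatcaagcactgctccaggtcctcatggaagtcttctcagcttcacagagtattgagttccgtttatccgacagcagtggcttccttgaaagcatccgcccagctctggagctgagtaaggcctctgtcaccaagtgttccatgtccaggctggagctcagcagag
Naip2 and Naip6: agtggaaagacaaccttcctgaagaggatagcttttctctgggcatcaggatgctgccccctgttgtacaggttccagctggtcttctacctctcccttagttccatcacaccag
Only the Naip6 gene (ENSMUSG00000078942) was listed beside Naip2, while Naip1 and Naip5 were not analysed here.

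Naip6, a receptor for flagellin, was at 36.9, 33.3 and 43.2 normalized counts in shControl, 10.8, 23.1 and 17.6 in shH4, and 6.89, 17.8 and 5.61 in shH6. No KD library reached the shControl range, and the hairpins overlapped. Naip6 fell in both, with log2 differences of −1.15 in shH4 (SE 0.36, limma adjusted p = 0.00688) and −1.96 in shH6 (SE 0.36, limma adjusted p = 0.000134). The difference between the hairpins was −0.81 (95% interval −1.56 to −0.06, limma adjusted p = 0.193). These values rested on 28 to 54 reads in shControl and 4 to 21 in the KD libraries. The part of reads shared with Naip2 in this change was not tested.

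Other NOD-like receptor and inflammasome genes were examined next. Of 29 inflammasome and pyroptosis genes, 5 were listed: Naip6, Casp8, Gsdmd, Il18 and Aim2. All 5 fell in shH4 and 4 fell in shH6, where 46.5% and 46.9% of all genes were lower, with medians of −0.31 and −0.15 against 0.10 and 0.09 over all genes. Gsdmd, which forms the membrane pore of pyroptosis, fell in both hairpins, from 964 ± 69.8 normalized counts in shControl to 779 ± 52.1 (shH4) and 775 ± 56.6 (shH6, SD over 3 libraries), with log2 differences of −0.31 and −0.32 (limma adjusted p = 0.000629 and 0.000486). Aim2, a sensor of cytosolic DNA, fell, at −0.24 in shH4 and −0.10 in shH6 (limma adjusted p = 0.000152 and 0.0356). Casp8, an apoptosis initiator, fell, at −0.13 and −0.12 (limma adjusted p = 0.0122 and 0.0153). Il18, a cytokine that inflammatory caspases cleave, fell in shH4, at −0.33 (limma adjusted p = 0.00152) and was at −0.15 in shH6 (limma adjusted p = 0.0845). The shH6 count was 2 in place of 4 with column-total scaling and also without shH6 replicate 3. These changes were small beside those of Naip2 and Naip6. None of the 5 passed the limma test between the hairpins, and 3 had an unadjusted p under 0.05 (21.5% of all genes). Nlrc4, Casp1 and Pycard, with which Naip2 acts, were not analysed here.

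Of 14 NOD-like receptor and BIR domain genes, 4 were listed, of which 2 rose and 2 fell with H4, and 2 rose and 1 fell with H6, where 49.2% and 49.1% of all genes were higher and 46.5% and 46.9% lower. Nod1, a sensor of bacterial peptidoglycan, fell, at −0.41 in shH4 and −0.54 in shH6 on the log2 scale (limma adjusted p = 0.00228 and 0.000276). Ripk2, the kinase that acts below Nod1, rose by 0.25 and 0.21 (limma adjusted p = 0.00679 and 0.0177). Birc6, a large inhibitor of apoptosis that shares BIR domains with Naip2, rose by 0.28 and 0.25 (limma adjusted p = 7.74e-06 and 1.96e-05). Nlrc5, the transactivator of MHC class I genes, fell in shH4, at −1.43 (limma adjusted p = 0.000751) and was at −0.56 in shH6 (limma adjusted p = 0.0994). It rested on only 32, 25 and 24 reads in shControl, 7, 12 and 8 in shH4, and 28, 10 and 18 in shH6. None of the 4 passed the limma test between the hairpins, and 1 had an unadjusted p under 0.05 (21.5% of all genes).

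The partners of Itgb2 were listed only in part. The alpha chains Itgal, Itgam, Itgax and Itgad and the ligand Icam1 were not analysed here, so no beta2 heterodimer could be described. Of 25 partners, ligands and activators, 8 were listed, with 5 higher (62.5%) and 3 lower (37.5%) in each hairpin, near the 49.2% and 49.1% higher and 46.5% and 46.9% lower over all genes. F11r, a junctional adhesion molecule that binds the Itgal and Itgb2 heterodimer, fell in both hairpins, from 3867 ± 95.1 normalized counts in shControl to 2925 ± 21.1 (shH4) and 2784 ± 133 (shH6, SD over 3 libraries), with log2 differences of −0.40 and −0.48 (limma adjusted p = 2.74e-07 and 4.64e-08). Icam5, a ligand best known from neurons, fell, at −0.68 and −1.37 (limma adjusted p = 0.00996 and 5.46e-05), but rested on only 10 to 75 reads per library. Cyth1, which binds the tail of the beta2 chain, fell, at −0.28 and −0.24 (limma adjusted p = 0.00201 and 0.00563). The genes that rose act in adhesion in most cell types. Vcl, Ilk and Rap1b, an adaptor to actin, a focal adhesion scaffold and a small GTPase that activates integrins, rose, by 0.13, 0.20 and 0.19 for hairpin H4 and by 0.12, 0.13 and 0.16 for hairpin H6. The highest limma adjusted p of these 6 values was 0.00592. None of the 8 genes passed the limma test between the hairpins, and 2 had an unadjusted p under 0.05 (21.5% of all genes).

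Of 21 other integrin subunits, 5 alpha chains were listed. In shH4 4 were higher and 1 lower, and in shH6 3 were higher and 1 lower, where 49.2% and 49.1% of all genes were higher. Itga2, a collagen receptor chain, rose in both hairpins, from 314 ± 4.78 normalized counts in shControl to 579 ± 12.9 (shH4) and 477 ± 19.9 (shH6, SD over 3 libraries), with log2 differences of 0.88 and 0.60 (limma adjusted p = 7.69e-09 and 4.29e-07). Itga6, a laminin receptor chain, rose by 0.42 and 0.14 (limma adjusted p = 1.96e-08 and 0.00104), and Itga5, a fibronectin receptor chain, by 0.38 and 0.40 (limma adjusted p = 5.55e-05 and 3.25e-05). Itga3 rose by 0.17 in shH4 (limma adjusted p = 0.00226) and was at 0.08 in shH6 (limma adjusted p = 0.0755). Itga2b, the platelet alpha chain, fell, at −0.88 and −0.66 (limma adjusted p = 0.00078 and 0.00508). Itga2 and Itga6 were lower in shH6 than in shH4, at −0.28 and −0.29 (limma adjusted p = 0.00838 and 3.76e-05), while Itgb2 was higher there.

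The relatives of Cd68 and the contents of the lysosome were then described. Lamp1 and Lamp2, the most abundant lysosomal membrane glycoproteins, were at 7515 ± 28 and 3843 ± 102 in shControl (SD, n = 3 each). Lamp1 fell, at −0.13 in shH4 and −0.14 in shH6 on the log2 scale (limma adjusted p = 0.00276 and 0.0012), and Lamp2 fell too, at −0.20 and −0.36 (limma adjusted p = 0.000246 and 1.06e-06). These steps were much smaller than that of Cd68. Of the 21 genes of the LAMP family and the scavenger receptors, 5 are described, with 2 higher (40%) and 3 lower (60%) in each hairpin, near the shares over all genes (49.2% and 49.1% higher, 46.5% and 46.9% lower). Scara5, a class A scavenger receptor, fell, at −1.48 and −0.92 (limma adjusted p = 1.52e-06 and 0.000143). Scarb1, the receptor for high-density lipoprotein, and Ager, the receptor for glycated proteins, rose, by 0.31 and 0.84 for hairpin H4 and by 0.27 and 0.56 for hairpin H6. The highest limma adjusted p of these 4 values was 0.0345. In shH6 relative to shH4, Lamp2 was at −0.15 (limma adjusted p = 0.0226), and without shH6 replicate 3, shH4 replicate 1 or shH4 replicate 3 no gene of this list was called.

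Most of the listed lysosomal hydrolases and their helpers were lower, as Cd68 was. Of 40 such genes 28 are described, and 27 fell in each hairpin while Gusb rose. The share lower was 96.4%, against 46.5% of all genes in shH4 and 46.9% in shH6. The medians were −0.28 and −0.36 on the log2 scale, against −1.50 and −1.57 for Cd68 itself. Lgmn, an asparaginyl protease, fell in both hairpins, from 1006 ± 24 normalized counts in shControl to 635 ± 85.6 (shH4) and 614 ± 28.6 (shH6, SD over 3 libraries), with log2 differences of −0.67 and −0.71 (limma adjusted p = 1.36e-06 and 6.91e-07). Neu1, a sialidase, was at −0.52 and −0.66, and Lipa, the acid lipase, at −0.55 and −0.52 (limma adjusted p between 3e-07 and 3.42e-06). By the mean of both hairpins, the smallest steps were those of Gusb, a glucuronidase, at 0.24 and 0.15, Gla, a galactosidase, at −0.20 and −0.16, and Ctsl, a protease, at −0.16 and −0.20. Between the hairpins, 4 of the 28 differed (14.3%, where 8.26% of all genes differed and 4.38% were lower), all lower in shH6: Tpp1 at −0.26, Ctsd at −0.21, Smpd1 at −0.19 and Hexa at −0.16. These 4 were named after their values were seen. The count was 2 without a trend, or without replicate 1 or 2 of shH4 or replicate 1 or 3 of shH6. In this comparison Cd68 itself was at −0.07 and did not pass the test.

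**Figure D2:**
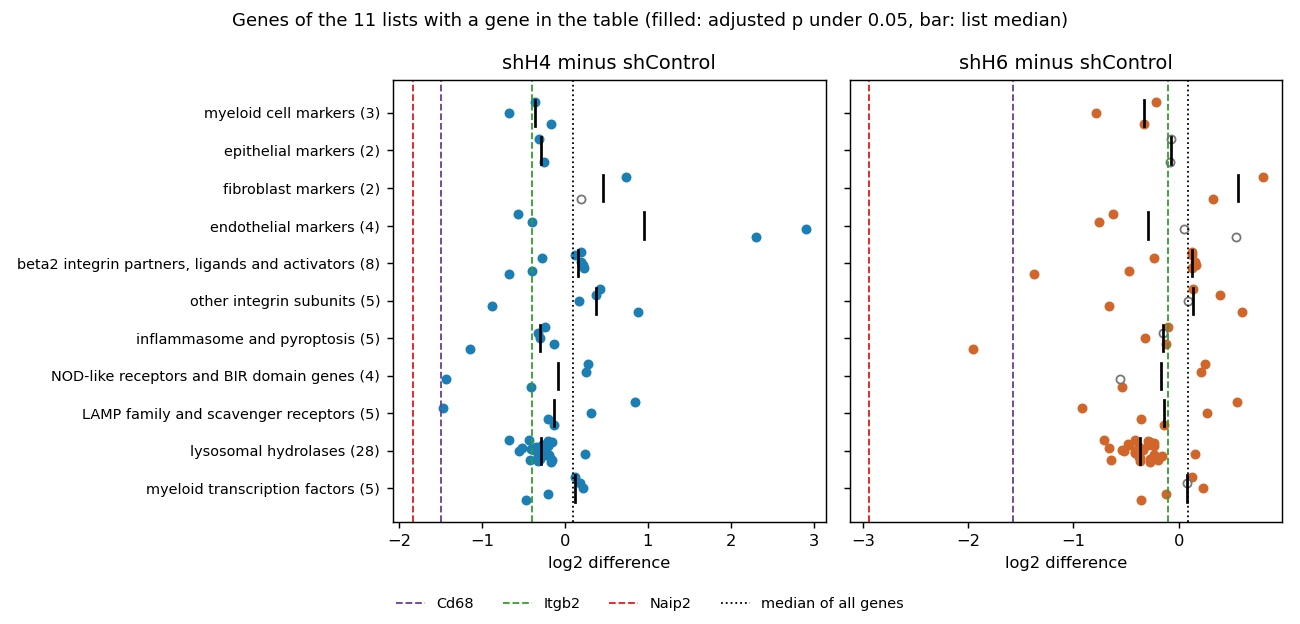
Log2 difference from shControl (x axis) of each listed gene in 11 fixed gene lists (y axis, number of listed genes in parentheses), for shH4 and shH6. Filled points had a limma adjusted p under 0.05, open points did not, black bars are list medians, the dotted line is the median of all 5301 genes, and dashed lines mark Cd68, Itgb2 and Naip2. In shH6, the line of Naip2 (−2.94) lies below every listed gene, and 27 of the 28 lysosomal genes lie below 0 in both panels.

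Because the 3 genes are known from myeloid cells, the markers of such cells were counted. Of 48 myeloid markers, 3 were listed, all lower in each hairpin, where 46.5% and 46.9% of all genes were lower. Without shControl replicate 2 or without shH4 replicate 2, 2 of the 3 passed in shH4. Their summed level was between 1026 and 1074 normalized counts in shControl, 832 and 874 in shH4, and 835 and 880 in shH6. Cd14, the co-receptor for lipopolysaccharide, fell in both hairpins, from 457 ± 9.22 normalized counts in shControl to 407 ± 4 (shH4) and 364 ± 8.6 (shH6, SD over 3 libraries), with log2 differences of −0.17 and −0.33 (limma adjusted p = 0.0171 and 0.000162). Mertk, a receptor for dying cells, fell, at −0.37 and −0.21 (limma adjusted p = 9.35e-05 and 0.00525), and Fcgr4, a receptor for IgG, fell, at −0.68 and −0.79 (limma adjusted p = 0.00867 and 0.00333). Fcgr4 rested on only 24 to 67 reads per library. None of the 3 passed the limma test between the hairpins, and 2 had an unadjusted p under 0.05 (21.5% of all genes). Their steps were smaller than those of Cd68 and Naip2. The markers that define macrophages and leukocytes, among them Ptprc, Csf1r, Adgre1 and Spi1, were not analysed here, so the label of these genes as myeloid could not be checked against them. Whether myeloid cells were present was not tested. In bulk RNA, fewer cells of a type and less RNA per cell cannot be told apart.

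Of 31 transcription factors used in myeloid cells, 5 are described, with 3 higher and 2 lower in shH4 and 2 of each in shH6, a split near that of all genes (49.2% and 49.1% higher, 46.5% and 46.9% lower). Irf5, a factor of inflammatory macrophages, fell in both hairpins, from 942 ± 25.9 normalized counts in shControl to 682 ± 12.8 (shH4) and 737 ± 23 (shH6, SD over 3 libraries), with log2 differences of −0.47 and −0.35 (limma adjusted p = 8.5e-07 and 1.3e-05). Bach1, a heme-regulated repressor, fell, at −0.20 and −0.12 (limma adjusted p = 0.00115 and 0.0205). Elf4, an ETS factor, rose by 0.22 and 0.23, and Sp1, a general factor, by 0.12 and 0.13, with limma adjusted p-values of at most 0.0105. Ets1 rose by 0.18 in shH4 (limma adjusted p = 0.000347) and was at 0.08 in shH6 (limma adjusted p = 0.0522). None of the 5 factors passed the limma test between the hairpins, and 2 had an unadjusted p under 0.05 (21.5% of all genes). Without shControl replicate 1, the shH6 count of the list was 2 in place of 4, and with upper-quartile scaling the shH4 count was 3 in place of 5.

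Markers of other cell types were sparse as well, and their counts stand against 95.7% (shH4) and 96.1% (shH6) of all genes that passed. None of 18 lymphocyte markers was listed. The epithelial keratins Krt8 and Krt18 were abundant in shControl, at 15450 ± 636 and 12460 ± 588 (SD, n = 3 each), as is usual for mammary tumor cells. They fell in shH4, at −0.25 and −0.32 (limma adjusted p = 0.000118 and 1.27e-05) and were at −0.08 and −0.07 in shH6 (limma adjusted p = 0.0953 and 0.139). Both were higher in shH6 than in shH4, by 0.17 and 0.25 (limma adjusted p = 0.0232 and 0.00209), the order that Itgb2 had. The epithelial count in shH6 was 2 with upper-quartile scaling, and also without shControl replicate 2 or without shH6 replicate 2. Of the fibroblast markers 2 were listed: Pdgfra, a growth factor receptor, rose by 0.74 and 0.80 (limma adjusted p = 0.000477 and 0.000231), and Col6a3, a collagen chain, rose by 0.32 in shH6 (limma adjusted p = 0.00555) and was at 0.19 in shH4 (limma adjusted p = 0.0729). Without shControl replicate 2, both passed in shH4. Of 12 endothelial markers 4 were listed. Egfl7 and Eng fell with both hairpins, at −0.57 and −0.40 for H4 and −0.63 and −0.75 for H6 (highest limma adjusted p = 0.0307, for Eng in shH4, where its libraries overlapped with those of shControl). Pecam1 and Cdh5 rose by 2.31 and 2.91 in shH4 (limma adjusted p = 4.17e-05 and 1.51e-08) and were at 0.54 and 0.05 in shH6 (limma adjusted p = 0.158 and 0.818). Pecam1 rested on only 9, 5 and 2 reads in shControl and 26, 25 and 25 in shH4. Cdh5 rested on 36, 12 and 23 reads in shControl and 150, 143 and 188 in shH4. Without shControl replicate 1 or 3, or without shH4 replicate 1 or 3, 3 of the 4 passed in shH4. The part of these markers in the values of Cd68, Itgb2 and Naip2 was not tested.

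**Figure D3:**
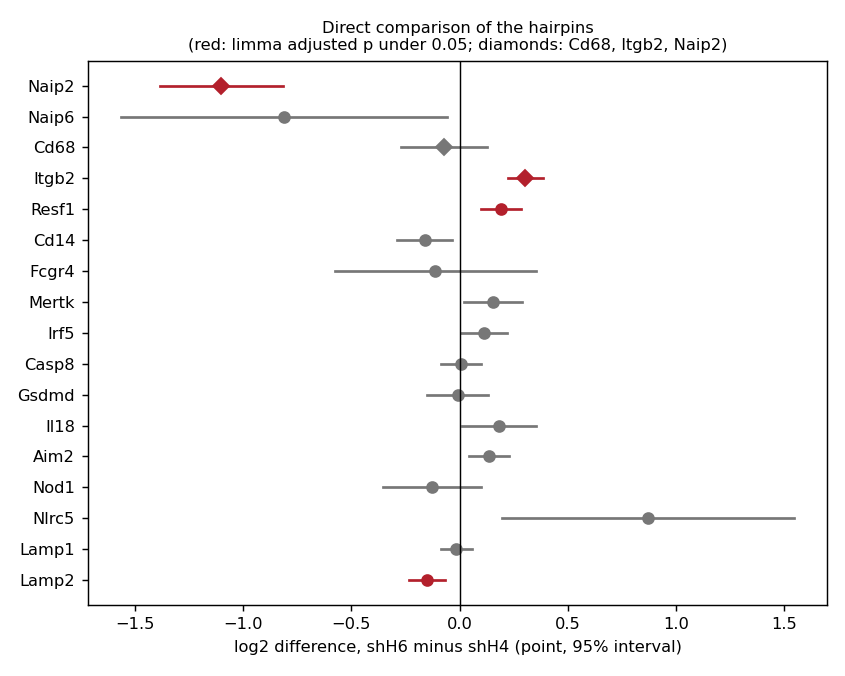
Log2 difference of shH6 from shH4 (x axis) with its 95% interval for Cd68, Itgb2 and Naip2 (diamonds), Resf1 and listed genes of the myeloid marker, inflammasome, NOD-like receptor, LAMP and transcription factor lists (y axis). Red marks a limma adjusted p under 0.05. Naip2 (−1.10) and Itgb2 (0.30) lie on opposite sides of 0, and the interval of Cd68 (−0.27 to 0.13) spans it.

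The genes with the most similar pattern were found by the root mean square difference (RMS) of their log2 profiles over the 9 libraries, after the shControl mean of each gene had been subtracted. The nearest to Cd68 was Mal, a membrane raft proteolipid (RMS 0.121), with −1.49 in shH4 and −1.41 in shH6. Rasgef1a, an exchange factor for Ras proteins (RMS 0.201), and Tcn2, the carrier of vitamin B12 (RMS 0.212), followed. The nearest to Itgb2 were Gchfr, a regulator of GTP cyclohydrolase (RMS 0.0383), Cyp51, an enzyme of cholesterol synthesis (RMS 0.0458), and Nfil3, a bZIP transcription factor (RMS 0.0467). All 3 had the smaller difference in shH6, with −0.42, −0.37 and −0.40 in shH4 and −0.11, −0.13 and −0.11 in shH6. Naip2 had no neighbour as close. Fcgrt, the heavy chain of the neonatal Fc receptor, was nearest (RMS 0.429), with −1.45 in shH4 and −2.39 in shH6, followed by Espnl, an actin-bundling protein (RMS 0.486), and Gm25791 (RMS 0.598). These genes were chosen for their likeness, so no test is given, and nothing follows from it on shared function.

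**Figure D4:**
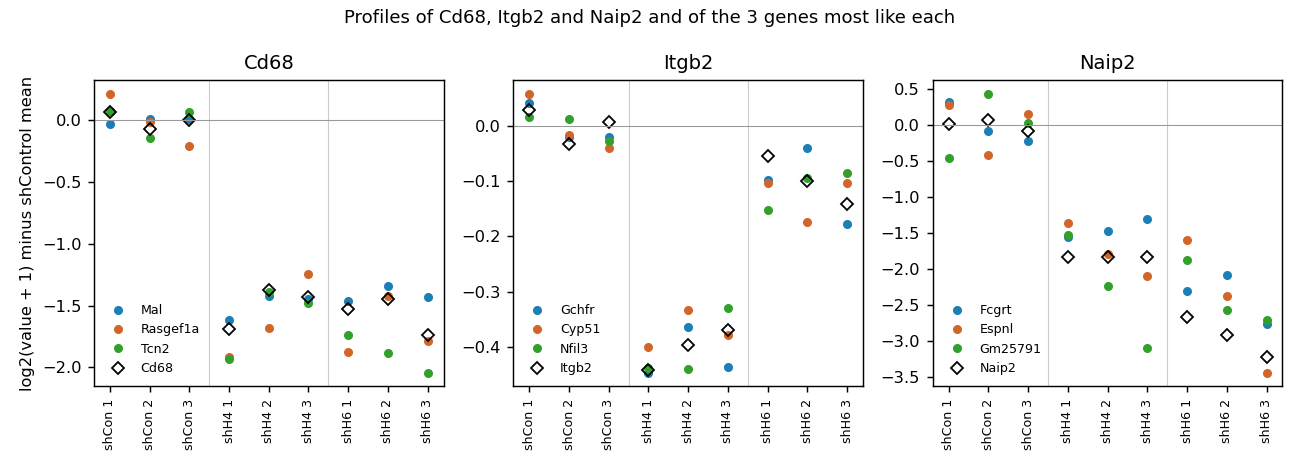
Log2(value + 1) minus the shControl mean of the gene (y axis, one scale per panel) in each of the 9 libraries (x axis, shCon for shControl) for Cd68, Itgb2 and Naip2 (diamonds) and the 3 genes most like each (points). Itgb2 and its 3 neighbours lie lowest in shH4, whereas Naip2 and Fcgrt lie lowest in shH6.

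The nearest listed genes on the chromosome were taken from the GRCm38 annotation. Of these 6, 4 were higher in both hairpins, where 49.2% and 49.1% of all genes were higher. Eif4a1, a translation initiation helicase, ends 0.78 kb upstream of Cd68 on the same strand, and it rose by 0.12 in shH4 and by 0.11 in shH6 (limma adjusted p = 0.00516 and 0.00898), while Cd68 was lower. On the other side, Sat2, an acetyltransferase 40.3 kb away, fell, at −0.78 and −0.72 (limma adjusted p = 0.00604 and 0.0101). Beside Itgb2, Pofut2, a fucosyltransferase 261 kb away, rose by 0.18 and 0.14 (limma adjusted p = 0.00237 and 0.0119), and Pfkl, a glycolytic kinase 421 kb away, rose by 0.27 and 0.33 (limma adjusted p = 2.3e-05 and 2.12e-06). Beside Naip2, Smn1, a factor of snRNP assembly 6.37 kb away on the opposite strand, rose by 0.58 and 0.42 (limma adjusted p = 0.000179 and 0.00188), and Naip6, 79 kb away on the same strand, fell. The pseudogene Gm18413 overlaps the Naip2 gene but shares 0 bases with its exons.

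The promoters of Cd68 and Naip2 are shown because a promoter sequence was available for these genes and not for Itgb2. Both genes had a large difference in both hairpins. RefSeq promoter sequences of GRCm38.p6 were matched for these 2 of the 3 genes. The 250 bases before the start are written 5′ to 3′ on the minus strand, and capitals mark motif matches.
Cd68 at chr11:69666171-69666420: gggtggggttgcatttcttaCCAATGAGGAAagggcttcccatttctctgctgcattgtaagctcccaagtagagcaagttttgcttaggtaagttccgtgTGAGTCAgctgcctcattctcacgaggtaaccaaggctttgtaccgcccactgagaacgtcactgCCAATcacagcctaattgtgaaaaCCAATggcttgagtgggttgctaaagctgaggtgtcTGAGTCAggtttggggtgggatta
Naip2 at chr13:100202123-100202372: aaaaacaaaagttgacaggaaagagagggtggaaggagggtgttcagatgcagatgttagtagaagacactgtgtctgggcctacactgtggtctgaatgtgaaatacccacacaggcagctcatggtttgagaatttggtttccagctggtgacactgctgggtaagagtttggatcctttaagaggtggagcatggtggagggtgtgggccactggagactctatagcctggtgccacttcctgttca
In all, 5 motifs were searched on both strands: GAGGAA, the core of PU.1 sites, and TGAGTCA, the AP-1 site, then the CCAAT box, the TATAAA box and the CACGTG E-box. Cd68 held 1 match of GAGGAA, 3 of CCAAT and 2 of TGAGTCA, none of which overlap each other. GAGGAA was found in 23.3%, CCAAT in 33.9% and TGAGTCA in 4.46% of the 32851 promoters of this length. Naip2 held none of the 5 motifs. TATAAA and CACGTG, which neither promoter held, were found in 12.4% and 6.02%. A pattern of 4 runs of at least 3 G with spacers of at most 7 bases, as in G-quadruplexes, was found in neither on either strand, against 16.7% of all promoters. Both promoters had a GC content of 49.2%, with 4 CpG in Cd68 and 0 in Naip2. The first 30 transcribed bases of both RefSeq starts were not in a GENCODE M21 transcript of the gene, so the annotations place these starts differently. A match is a description of letters, not of a bound factor.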

How the data were processed

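Total RNA was sequenced from 9 libraries of 6DT1 cells, 3 each of shControl, shH4 and shH6 (TruSeq Stranded Total RNA). The submitters' processing notes name STAR 2.7.8a, Partek, DESeq2 and the build mm39, while the counting step, its annotation and its use of strand are not given in the sources used here. The deposited values are a signal, namely estimated read counts that the authors had divided by a median-ratio size factor for each library, and not raw counts. Size factors were recovered from the steps of low values and ran from 0.802 to 1.46. Below 150 normalized counts, 75.5% of the values were whole multiples of a step (tolerance 0.03 reads), so whole reads were not recovered and no count-based test was run, although the design had left room for one. Estimated reads cover the listed genes only. All 9 value columns matched a sample. Replicates differed by more than sampling noise, with a chi-square per gene from 2.52 to 7.47.

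The table held 5301 genes, of which 5258 (99.2%) matched GENCODE M21, an annotation of GRCm38. Each of the 5301 was higher in both KD groups or lower in both, and why only these were listed was not stated. The p-values against shControl, and the shares of genes that differed between the hairpins, are therefore those of a selected set. The test was run on log2(value + 1) by limma 3.58.1 under R 4.3.3 (a mean per group over all 9 libraries, empirical Bayes with a trend, Benjamini-Hochberg adjustment over 5301 genes), without a filter on low values. Log2 differences on this scale understate the change of low genes. The 3 genes, the 12 gene lists and the tests were chosen with earlier results of these data known, and the difference of Naip2 between the hairpins was among those results. Genes were named by a rule: Cd68, Itgb2, Naip2 and Resf1, all listed genes of a list where at most 6 were listed, otherwise the 3 largest and 3 smallest by mean difference from shControl, fixed partners where listed, the 3 nearest patterns, and the neighbours on the chromosome. A few genes of these lists are not reported here and are left out of the list counts. Alternatives were pseudocounts of 0.5 and 5, a filter of 10 normalized counts, scaling by column total or upper quartile, a fit of 2 groups, a replicate block, library weights, no trend, and each library left out.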

Additional observations from a re-analysis of the deposited data

Results flagged for a closer look

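Of the genes named by the rule or counted in a list, other than those chosen for a pattern like that of Cd68, Itgb2 or Naip2, those with an adjusted p under 0.05 in the limma test of shH6 against shH4 are given with their log2 difference, positive where shH6 was higher. Itgb2 was at 0.304 and Naip2 at −1.101, on opposite sides of 0, where 8.26% of all genes of this selected table passed this test. For each of these 2 genes, the 3 libraries of one hairpin were all above those of the other. The share of all genes with such a gap was not counted. Resf1, the target, was at 0.192. The keratins Krt8 and Krt18 were at 0.172 and 0.247. The endothelial genes Pecam1 and Cdh5 were at −1.763 and −2.856, the integrin chains Itga2 and Itga6 at −0.277 and −0.287, and Lamp2 at −0.152. Pecam1 rested on only 9, 9 and 4 reads in shH6 and 26, 25 and 25 in shH4. The lysosomal enzymes Ctsd, Hexa, Smpd1 and Tpp1 were at −0.214, −0.162, −0.188 and −0.264. The labels gave no more than 1 line per hairpin, so a hairpin and its line cannot be told apart.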

How the results depend on the processing

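Of 774 values (43 results under 18 alternatives), 725 kept their direction and call or stayed within the limits set. The difference of Cd68 between the hairpins, which was not past the threshold, turned from −0.072 to 0.011 without shH6 replicate 3, and lay between −0.168 and 0.011 when 1 library was left out. Scaling by the upper quartile moved Itgb2 to −0.464 in shH4 and −0.151 in shH6, and the column total moved it to −0.058 in shH6. Library weights moved Naip2 in shH6 to −2.730. The genes called between the hairpins numbered 438, 684 with library weights, and 287 to 422 when 1 library was left out (287 without shH6 replicate 1 and 290 without shH4 replicate 1), where fewer libraries are a cause by construction. The cause of the other moves was not tested.

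The counts of called genes in small lists moved by 1 or 2. With library weights, the fibroblast count in shH4 was 2 and the epithelial count in shH6 was 1, and between the hairpins the beta2 partner count was 2 and the inflammasome, NOD-like receptor and myeloid factor counts were 1 each. With the upper quartile, the epithelial count in shH6 was 2 and the myeloid factor count in shH4 was 3. The LAMP count between the hairpins was 1, and 2 with a pseudocount of 5, either scaling or the block. With the column total, the inflammasome count was 2 in shH6 and 1 between the hairpins. Without a trend, the counts between the hairpins were 1 for myeloid markers, 1 for epithelial markers, 0 for the LAMP list and 2 for lysosomal genes. Between the hairpins, the filter left 1 endothelial marker called in place of 2, since it tests fewer genes. When 1 library was left out, the counts were 1 to 2 (fibroblast, shH4), 0 to 2 (epithelial, shH6), 2 to 4 (inflammasome, shH6) and 2 to 4 (myeloid factors, shH6). Between the hairpins they were 1 to 2 (epithelial), 0 to 1 (beta2 partners, inflammasome and NOD-like receptors), 0 to 2 (LAMP list) and 2 to 3 (lysosomal genes).

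The replicate numbers of the labels were tested as a block. Same-numbered libraries did not deviate together (correlation −0.158 to 0.109). Whether they shared a step of handling is not given by the labels and cannot be told from these correlations. With the replicate block, 405 genes and 2 of the LAMP list were called between the hairpins, and Itgb2 (0.304, limma adjusted p = 0.000301), Naip2 (−1.101, limma adjusted p = 0.000142) and Cd68 (−0.072, limma adjusted p = 0.731) kept their calls. Of the 3 genes, Naip2 in shH6 rested on the fewest reads.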
